A study of Homo sapiens with 2 samples.

Results

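Sprouty proteins, SPRED proteins and dual-specificity phosphatases (DUSPs) are the feedback brakes of receptor tyrosine kinase signalling, and 9 of their genes are described here in PC-3 cells with and without knockdown of SHISA2. The members are SPRY1, SPRY2, SPRY4, SPRED1, SPRED2, DUSP1, DUSP4, DUSP5 and DUSP6, out of 19775 genes that have a probe set of their own on the array. They were taken by name, with every probe set annotated to exactly 1 of them, which gave 20 of 41091 single-gene probe sets. PC-3 cells come from a bone metastasis of a prostate cancer and grow without androgen. RNA from cells that had received a control shRNA vector (siCONTROL) was hybridised to 1 array, and RNA from cells with a vector against SHISA2 (siSHISA2) to the other. The sources used here do not say how the cells were selected, when they were harvested or how many cultures each RNA came from, and the only stated genetic difference is the vector. With 1 array per group nothing below was tested against the spread between cultures, no p-value exists, and precision is limited by having only 2 arrays.

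When a growth factor such as FGF or EGF binds its receptor, RAS, RAF, MEK and ERK are switched on in turn, and ERK then induces genes that damp the same chain. Sproutys act near the receptor and block the step to RAS and RAF. SPREDs bring neurofibromin, which turns RAS off, to the membrane, and the MAP kinase phosphatases among the DUSPs remove the activating phosphates from ERK, JNK or p38. Because ERK output induces many of these genes, their mRNA levels are often used as a readout of pathway activity. Shisa proteins retain FGF receptors and the Wnt receptors of the Frizzled family in the endoplasmic reticulum, so the comparison asks whether the feedback genes differ when SHISA2 is lowered.

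Values are MAS5 signals, brightness values on a linear scale. Signals below the floor of 47.9, the median of all signals, were raised to it, and a probe set was measured if at least 1 array read above it. Log2 ratios are knockdown over control. A signal above the 75th percentile of all signals, 387.3, is called bright, and signals of different probe sets were not compared with each other. A yardstick for technical scatter came from the 2 brightest measured probe sets of each gene. The SD of the gap between their log2 ratios, over root 2, was 0.286 for 6428 genes, and 0.155 with the floor at 387.3 (the bright yardstick). It leaves out any difference between cultures. SHISA2 itself read 3536.1 with the control vector and 1506.2 with the SHISA2 vector, a log2 ratio of -1.23. Of the epithelial keratins, KRT18 (18339.7 and 17533.2) and KRT8 (2283.2 and 1989.6) were bright in both arrays. KRT19 and CDH1 lay under the floor on both of their probe sets. EPCAM read 353.6 in control cells and 313.1 after knockdown, above the floor but not bright. VIM (16505.6 and 15025.4) and CD44 (17405.3 and 15821.6) were bright in both arrays on their brightest probe sets. Markers of other cell types were measured for 2 of 5 leukocyte, 3 of 5 endothelial and 2 of 5 fibroblast genes with a probe set. The brightest of each were CD79A (109.1 in control cells and 164.6 after knockdown), ESAM (522.6 and 500.9) and COL1A1 (787.2 and 577), and CDH5 read 155.9 and 261.5 and PECAM1 104.6 and 121.7. PTPRC, KDR and PDGFRA were under the floor on all of their probe sets, and the part of other cells in the results was not tested. Of 3 androgen-regulated genes with a probe set, TMPRSS2 was under the floor throughout, KLK2 was above it only in the knockdown array (71.3 on 1 probe set), and KLK3 read 242.3 and 251 on 1 probe set that can share probes.

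All 9 genes were measured, on 17 of the 20 probe sets. SPRY1 was the only member with a probe set at least 2-fold apart, and it was lower in the knockdown array. Of the measured probe sets, 1 of 17 was at least 2-fold apart (1.75% of all measured single-gene probe sets were), 1 was at least 2-fold lower (0.673% of all) and 0 were at least 2-fold higher (1.08% of all). No further member was added at 1.5-fold, where the count stayed at 1 (10.5% of all). The members lay on both sides of 0, with 9 probe sets below and 8 above it, against 47.9% below and 52.1% above among all measured single-gene probe sets. Of the 8, 1 dim DUSP1 probe set was above the floor only in the knockdown array, so that its sign was fixed by the floor. Taken by gene, on the brightest probe set of each, 5 were below 0 (47.8% of all genes) and 4 above (52.2%), and the median log2 ratio was -0.09 against 0.01 over 12931 measured genes. Without SPRY1 the median of the other genes was 0.06.

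**Figure D1:**
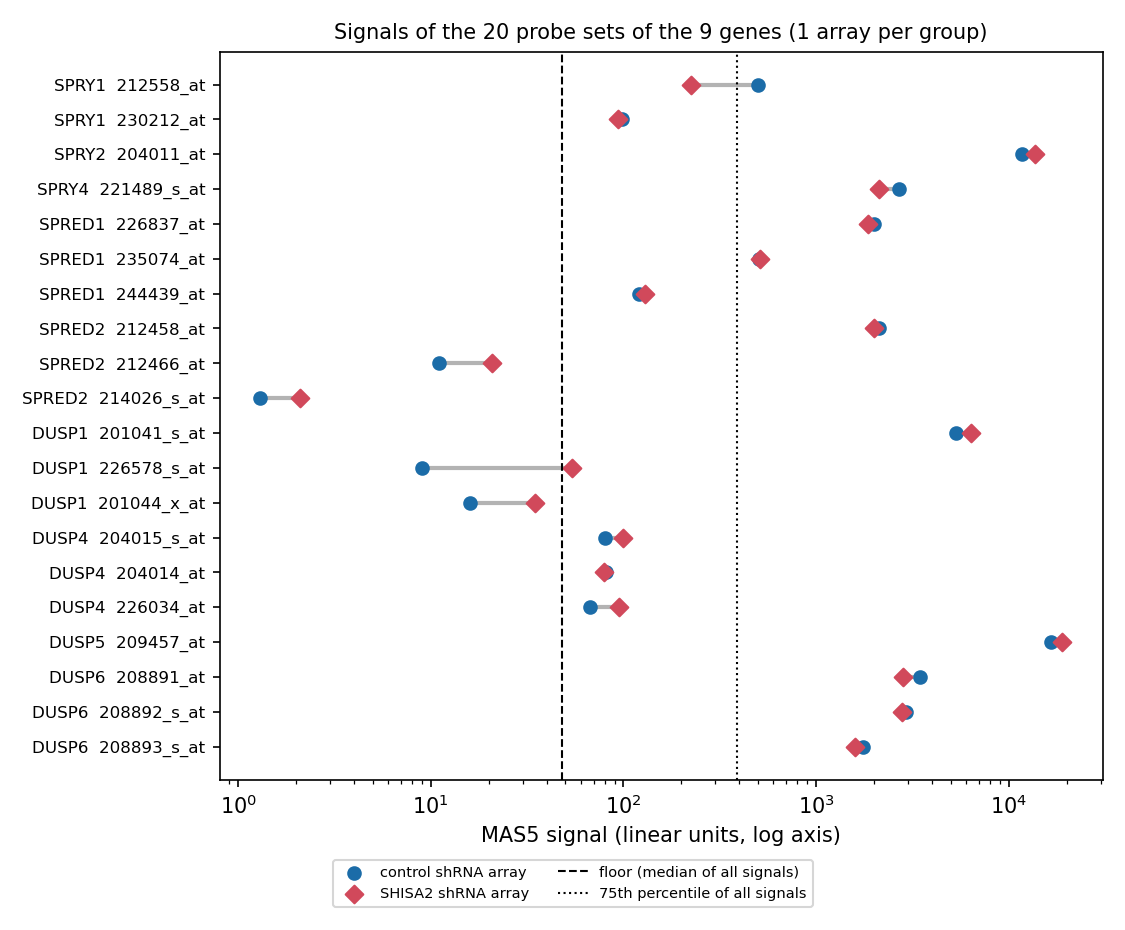
MAS5 signals (log axis) of all 20 probe sets of the 9 genes, with the control array as circles and the SHISA2 knockdown array as diamonds, the floor of 47.9 dashed and the 75th percentile of 387.3 dotted. The pairs lie close together on the bright probe sets, and the widest gap above the floor is that of SPRY1, at 499.9 in control cells and 224.5 after knockdown.

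SPRY1 encodes a Sprouty that restrains FGF and other receptor tyrosine kinases and is known for limiting branching in organs such as the kidney. Its probe set 212558_at read 499.9 with the control vector and 224.5 with the SHISA2 vector. The knockdown signal was 44.9% of the control signal, a log2 ratio of -1.15 (2.23-fold lower), which is 4.04 times the yardstick of 0.286. Among all measured genes 35 had a lower ratio. In RNA from whole cultures, less transcript per cell and fewer cells with the transcript cannot be told apart. Of the 1000 single-gene probe sets nearest to it in mean signal, whose ratios had an SD of 0.338, 0.4% lay at least as far from 0.

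The other SPRY1 probe set, 230212_at, did not show this difference. It read 98.4 in control cells and 93.5 after knockdown, a log2 ratio of -0.07. The probe sets thus differed by 1.08 on the log2 scale, and 154 of 6428 genes with several measured probe sets (2.40%) had their 2 brightest ones at least as far apart. Averaged over both, SPRY1 read -0.61. The lower signal on 212558_at also lay below 387.3, so that with the floor raised to that value the ratio was only a bound of -0.37.

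RefSeq (GRCh38.p14) lists 2 start sites for SPRY1. The 250 bases before each are printed here because SPRY1 was the member with the ratio farthest from 0, together with the outermost of 3 SPRY2 windows and the DUSP1 window, the others in which a searched motif was found. Capitals mark matches, on either strand, to TGACGTCA (the cAMP response element, CRE), TGANTCA (AP-1), CCGGAAG (an ETS factor core) and GCGGGGGCG (EGR), of which no matches overlapped in the printed windows.
SPRY1, outer start, chr4:123396545-123396794, plus strand: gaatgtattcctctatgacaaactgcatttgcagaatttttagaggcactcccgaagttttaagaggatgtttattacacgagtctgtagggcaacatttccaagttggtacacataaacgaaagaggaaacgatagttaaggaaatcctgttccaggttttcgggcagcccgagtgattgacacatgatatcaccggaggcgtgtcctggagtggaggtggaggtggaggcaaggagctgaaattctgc
SPRY1, inner start, chr4:123398136-123398385, plus strand: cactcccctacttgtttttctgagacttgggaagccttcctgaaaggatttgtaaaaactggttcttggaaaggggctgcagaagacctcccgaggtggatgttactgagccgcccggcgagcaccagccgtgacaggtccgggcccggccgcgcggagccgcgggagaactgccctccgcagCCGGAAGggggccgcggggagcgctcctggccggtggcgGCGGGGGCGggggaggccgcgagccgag
SPRY2, outer start, chr13:80341127-80341376, minus strand: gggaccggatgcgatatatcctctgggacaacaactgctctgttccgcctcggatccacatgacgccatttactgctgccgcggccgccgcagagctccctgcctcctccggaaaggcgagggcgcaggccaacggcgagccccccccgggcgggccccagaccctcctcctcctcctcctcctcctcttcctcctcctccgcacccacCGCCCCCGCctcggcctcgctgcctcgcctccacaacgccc
DUSP1, chr5:172771196-172771445, minus strand: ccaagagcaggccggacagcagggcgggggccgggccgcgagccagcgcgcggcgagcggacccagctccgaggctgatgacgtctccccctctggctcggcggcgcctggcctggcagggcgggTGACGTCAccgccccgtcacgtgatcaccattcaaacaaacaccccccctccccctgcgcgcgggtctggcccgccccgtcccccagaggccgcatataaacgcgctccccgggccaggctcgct
The windows of SPRY1 differed in base composition, with a GC content of 45.6% before the outer start and 68% before the inner one. The outer window held no match to the 4 motifs. The inner window held an ETS core starting 67 bases before the start site and an EGR motif starting 28 bases before it. The outer SPRY2 window held an EGR motif 41 bases before the start, the other SPRY2 windows held no match, and the DUSP1 window a CRE 125 bases before it. Windows were found for 7 of the 9 genes, without DUSP4 and DUSP5, and 8 of their 11 windows held no match. No share of all windows without any of the 4 motifs stands beside this count, so it is not read as high or low. Among all 35116 windows of this length, 1.65% held a CRE, 6.57% an AP-1 motif, 8.52% an ETS core and 4.72% an EGR motif. Such matches describe letters in the sequence and do not show binding.

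SPRY2 is the Sprouty that binds the adaptor GRB2 and the ubiquitin ligase CBL, and its loss has been described in prostate cancer. It read 11781 in control cells and 13739.8 after knockdown on its only probe set, and was thus slightly higher after knockdown. The log2 ratio of 0.22 was smaller than the 0.286 yardstick and 1.44 times the yardstick of bright probe sets. Of the 1000 probe sets nearest in signal, 12.5% were at least as far from 0.

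SPRY4, which acts on the activation of RAF, stood on the other side. It read 2680.9 in control cells and 2133.1 after knockdown, 79.6% of the control signal, on 1 probe set of the kind that can share probes with other transcripts. The log2 ratio of -0.33 was the lowest among the bright member probe sets and 2.13 times the bright yardstick. No other bright member probe set lay beyond 2 such SDs, against 13.4% of all bright single-gene probe sets. Of the probe sets nearest in signal, 9% were at least as far from 0, so that SPRY4 lay within the range of many genes of like brightness.

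The SPREDs were close to equal in both arrays. SPRED1, the gene of Legius syndrome, read 1994.2 in control cells and 1859.7 after knockdown on its brightest probe set (log2 ratio -0.10), 507.1 and 509.4 on the next (0.01), and 120.2 and 130 on the dimmest (0.11). The 3 probe sets spanned 0.21 on the log2 scale, with 0 inside that span. SPRED2 read 2123.4 and 1996.4 on its measured probe set (-0.09). Its other probe sets, at 11 against 20.9 and 1.3 against 2.1, were under the floor in both arrays and give no ratio. The 5 Sprouty and SPRED members were also counted together, a grouping made after the values were seen. On the brightest probe set of each, only SPRY2 was above 0 in the deposited scale (52.2% of all genes were). The same held under the 3 other scalings. By probe set, as deposited, 3 of 8 measured ones and 2 of 5 bright ones were above 0.

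Of the phosphatases, DUSP1 (MKP-1) is a nuclear enzyme induced early by stress and growth factors that acts on p38, JNK and ERK. Its bright probe set 201041_s_at read 5333.4 in control cells and 6389.7 after knockdown, 1.20-fold higher in the knockdown array (log2 ratio 0.26), the highest ratio among the bright member probe sets. A dim probe set, 226578_s_at, was above the floor only in the knockdown array, at 54 against 9, and counts as at least 1.13-fold higher. The third, 201044_x_at, read 16 and 34.6 and was not measured. Both dim probe sets read higher after knockdown, at signals too close to background to give a size.

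DUSP5, a nuclear phosphatase specific for ERK, read 16503.9 in control cells and 18991.7 after knockdown on its only probe set. Its log2 ratio of 0.20 was close to those of DUSP1 and SPRY2, and 14.1% of the probe sets nearest in signal were at least as far from 0.

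DUSP4 (MKP-2), another inducible nuclear phosphatase, was dim on all 3 probe sets. They read 80.6 and 99.2 (log2 ratio 0.30), 81.6 and 79.3 (-0.04), and 67.2 and 94.7 (0.49), control first. The probe sets did not share a sign, and of the probe sets nearest in signal to the first one 59.8% were at least as far from 0. No direction can be read for DUSP4 at these signals.

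DUSP6 (MKP-3), the cytoplasmic phosphatase specific for ERK and a much used readout of FGF signalling, was the only member with 3 bright probe sets. Probe set 208891_at read 3483.4 in control cells and 2838.8 after knockdown, 81.5% of the control signal and a log2 ratio of -0.30. The other probe sets read 2940.7 and 2797.9 (-0.07), and 1760.8 and 1583.9 (-0.15). All 3 were lower in the knockdown array, by 1.05-fold to 1.23-fold, also under the 3 other scalings. The largest of these was 1.91 times the bright yardstick and the smallest 0.465 times, so that the probe sets agreed in sign but not in size.

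**Figure D2:**
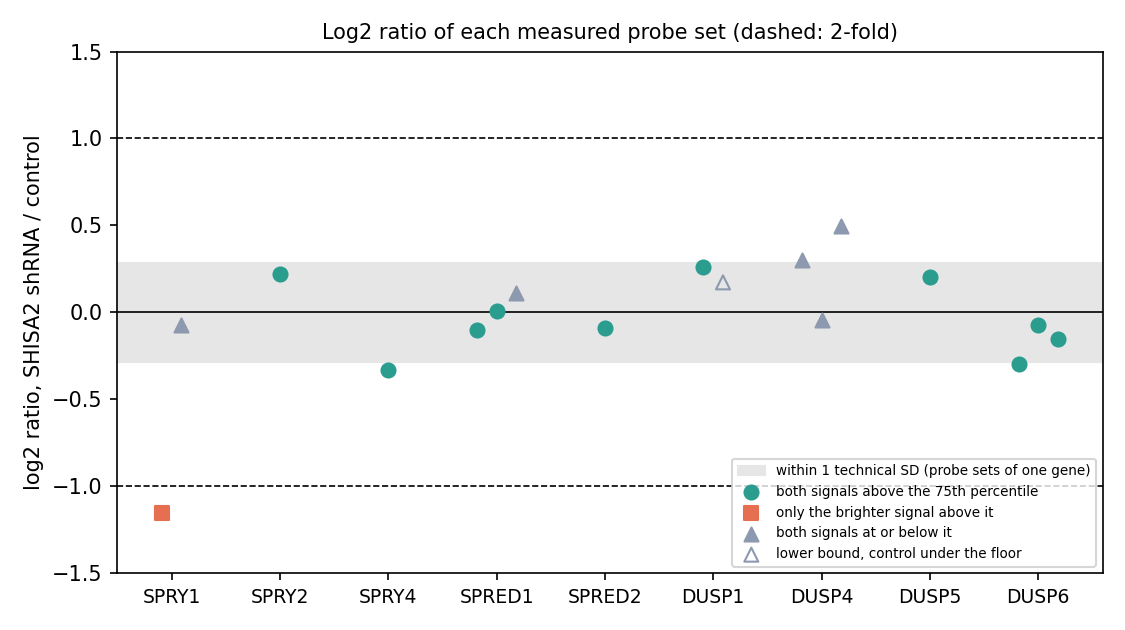
Log2 ratio, knockdown over control, of each of the 17 measured probe sets by gene, with the band of 1 technical SD (0.286) in grey and 2-fold dashed. The SPRY1 probe set at -1.15 is the only point beyond 2-fold, while the other SPRY1 probe set lies at -0.07.

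On the 10 bright member probe sets, which cover 7 genes, log2 ratios ran from -0.33 to 0.26 with a median of -0.08. None was 1.5-fold apart (2.09% of all bright single-gene probe sets were), and 5 of 10 lay within 1 bright yardstick of 0. In this set 6 were below 0 (50.4% of all bright single-gene probe sets were). After median centring it was 7 of 10, with SPRED1 probe set 235074_at moving from 0.01 to -0.02, and 6 of 10 after quantile normalization or removal of the loess trend. DUSP1, DUSP5 and SPRY2 stood on the higher side and SPRY4 and DUSP6 on the lower side in all 4 scalings.

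**Figure D3:**
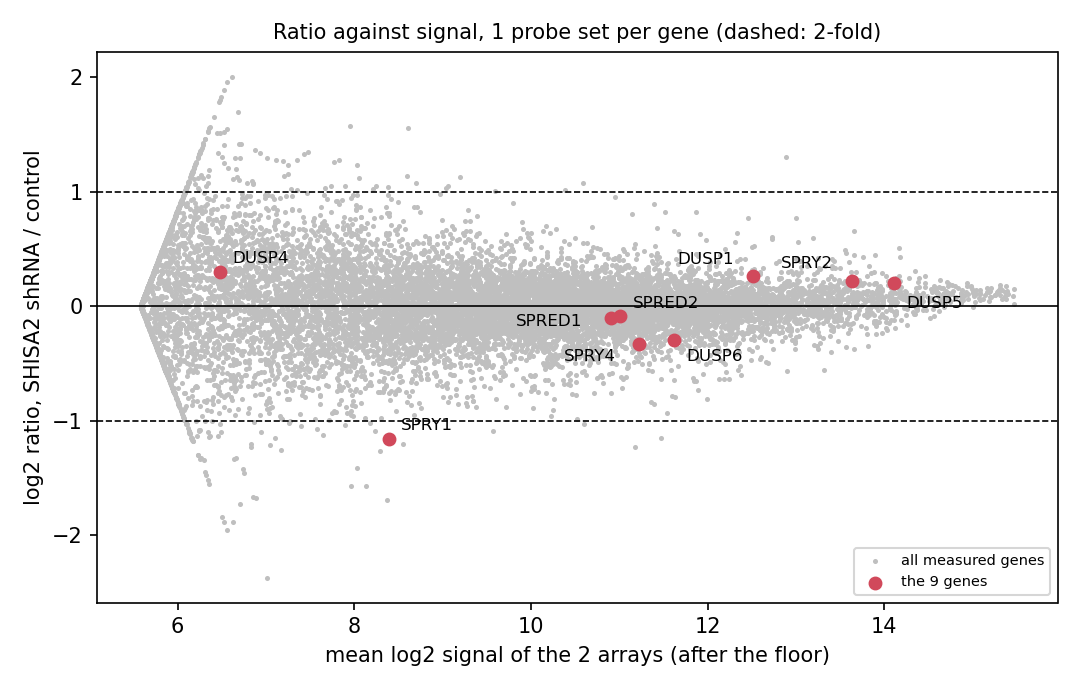
Log2 ratio against mean log2 signal for 12931 measured genes (grey, 1 probe set each) and the 9 genes (red), with 2-fold dashed. SPRY1 lies below the cloud at -1.15, and the other 8 lie within it, between -0.33 and 0.30.

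The other genes of the pathway were taken from lists by function. The MAP kinase phosphatases outside the 9 genes were all above 0. DUSP7, a cytoplasmic phosphatase of ERK like DUSP6, read 926.4 and 1325.1 (0.52). DUSP8, which prefers JNK and p38, read 172.2 and 220.2 (0.35) and was at least 2.65-fold higher on a dim second probe set that can share probes, at 127.1 from 29.7 in the control. DUSP10, also a JNK and p38 phosphatase, read 1175.8 and 1425.1 (0.28) and 0.65 on its other probe set, and DUSP2, a nuclear phosphatase of immune cells, 77.2 and 91.6 (0.25). DUSP16 had a ratio of 0.10, with 0.52 on its other probe set, and DUSP9 was at least 1.04-fold higher, barely above the floor; these 2 were named to complete the list. The list median was 0.26, and none of the 6 genes was at least 2-fold apart on its brightest probe set (1.48% of all genes were). As deposited and after median centring 6 of 6 were above 0 (52.2% of all genes were as deposited). After loess it was 5 of 6, with DUSP9 just below 0. Under quantile normalization DUSP9 was not measured and the other 5 were above 0.

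Together with DUSP1, DUSP4, DUSP5 and DUSP6 this makes the family of 10 MAP kinase phosphatases, a grouping made after the values were seen. In it 9 of 10 genes were above 0 (52.2% of all genes were), with DUSP6 as the exception, and this includes DUSP4, whose probe sets differed in sign, and DUSP9, barely above the floor. On bright probe sets it was 5 of 6 genes. After the loess correction it was 8 of 10 genes. Under quantile normalization 8 genes were above 0, and DUSP9 was not measured there. The family median was 0.25, and 0.16 after loess. By probe set 14 of 18 measured ones were above 0, and all 3 of DUSP6 were among the 4 below it. Of the 14, 3 were above the floor only in the knockdown array, on probe sets of DUSP1, DUSP8 and DUSP9. The floor fixed the sign of these 3. Among the bright ones 6 of 9 were above 0. Within the cytoplasmic ERK phosphatases, DUSP7 stood at 0.52 and DUSP6 at -0.30, while DUSP9, at 34.1 and 49.8, gave only a bound just above 0. Among the other Sproutys and SPREDs, SPRED3 read 134.1 and 144 (0.10) and SPRY3 was under the floor. The atypical DUSPs, small phosphatases without the MAP kinase binding domain, had a median of 0.11 with 5 of 8 measured genes above 0, led by DUSP28 (0.38), DUSP18 (0.26), DUSP14 (0.23) and DUSP19 (-0.20).

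Other negative regulators of receptor tyrosine kinases did not share a direction, with 7 of 15 above 0 and a median of -0.03. LRIG1, a membrane protein that promotes the degradation of EGF receptors, read 175 in control cells and 65.2 after knockdown, a log2 ratio of -1.42. It was the only one of the 15 at least 2-fold lower (0.565% of all genes were), on a single dim probe set. SPSB1, a SOCS-box adaptor, read 0.96 (-0.47 on its other probe set), the cytokine receptor inhibitor SOCS3 -0.64 (-1.40 and -0.49 at the ends of its other probe sets) and LRIG3 -0.37. All 3 measured probe sets of SOCS3 were below 0. NF1, the neurofibromin that SPREDs recruit, named for that role after its value was seen, was at least 1.29-fold higher, at 62 against a control signal of 47.6 just under the floor.

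Genes for proteins known to bind or work with Sproutys had a median of 0.02, with 5 of 7 above 0. After median centring it was 3 of 7, with a median of -0.005. PPP2R1A, the scaffold of protein phosphatase 2A, read 372.6 in control cells and 770.7 after knockdown (1.05), the only one at least 2-fold higher (0.92% of all genes were), while the catalytic subunit PPP2CA, named as its partner after its value was seen, read 0.08. CAV1, caveolin-1, read 6438.6 and 4980.2 (-0.37, and -0.17 on its other probe set), TESK1 -0.14 and the ubiquitin ligase SIAH2 0.11.

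Upstream, FGF receptors and the coreceptor KLB had ratios on both sides of 0. Above it were 4 of 6 (52.2% of all genes were), and the median was 0.51 against 0.01 over all genes. Only 2 of the 6 were bright in both arrays. The median lay between FGFR1 and FGFRL1, which was named for that reason after its value was seen. FGFRL1 read 53.9 in control cells and 76.8 after knockdown (0.51), not far above the floor. KLB, the coreceptor of hormone-like FGFs, read 1982.1 and 3670.2 (0.89, and 0.80 on its other probe set). FGFR1 read 545.4 and 778.4 (0.51), with its other probe sets from -0.80 to 0.69. FGFR4 read 296.2 and 155.4 (-0.93, and -0.03 on the other), and FGFR2 54.3 and 84.4 (0.64, and 0.01 on the other). Probe sets of FGFR1, FGFR2 and FGFR4 thus disagreed as those of SPRY1 did, and averaging probe sets gave a list median of 0.22.

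The kinase chain itself was near 0. In the RAS, RAF, MEK and ERK list 9 of 19 genes were above 0 (52.2% of all genes were), and the median was -0.02. None was at least 2-fold apart (1.48% of all genes were), with GAB1, SOS1, LAMTOR3 and RRAS2 the farthest. GAB1 read -0.34, with its other probe sets from -0.44 to 0.18, and SOS1 -0.23, with all 3 of its other probe sets above 0 (0.09 to 0.36). LAMTOR3 read 0.16 (0.20 on its other probe set) and RRAS2 -0.14 (-0.01 and 0.08 on its others). MAP2K1, which encodes MEK1, read 0.03 and MAPK3, which encodes ERK1, 0.06; both were named for their place in the chain after their values were seen. The JNK and p38 kinases, with the kinases that activate them, had a median of 0.03 with 4 of 7 measured genes above 0. Of this list 11 genes were looked for, and 8 had a probe set of their own. MAPK10 read 0.67 at signals of 85.1 and 135.2, MAPK13 was at least 1.40-fold lower (0.31 on its other probe set), MAPK11 read 0.16 and MAPK9 -0.09.

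Of the genes that ERK is known to induce, 17 of 23 were above 0 (52.2% of all genes were), and 16 of 23 under the 3 other scalings. The median was 0.17 against 0.01 over all genes. None was at least 2-fold apart (1.48% of all genes were), a share at which few or none would be looked for in a list of this length. The list held both signs at its ends. ETV4 read 172.5 and 95.4 (-0.85, and -0.40 on its other probe set) and ETV1 2680.1 and 1741.9 (-0.62, with other probe sets from -0.05 to 0.44); both are ETS factors of the PEA3 group induced by FGF. HBEGF, an EGF receptor ligand, read 633.3 and 866.8 (0.45, and 0.47 on its other probe set), and FOSB, an AP-1 subunit, 173.2 and 233 (0.43). ETV5, the remaining PEA3 gene and named for that reason after its value was seen, read -0.12, with other probe sets from -0.27 to 0.58, so that of the PEA3 genes only ETV4 was below 0 on every measured probe set. Both arrays enter all of these ratios, so that genes are not independent of each other in any such count.

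**Figure D4:**
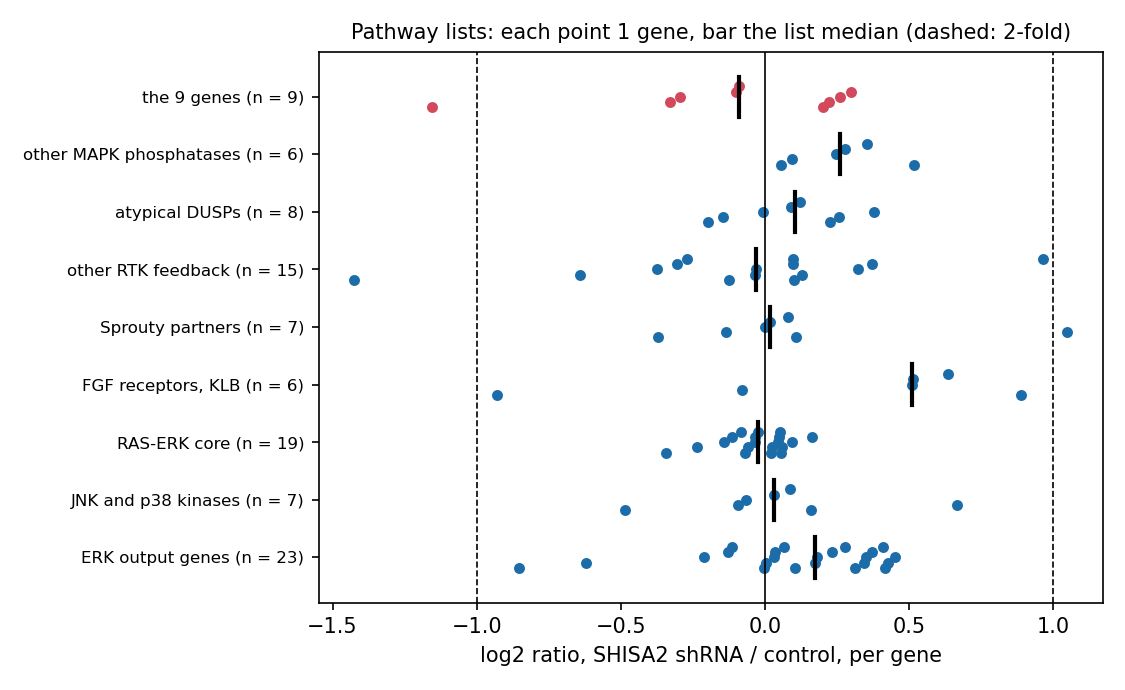
Log2 ratios, knockdown over control, per gene for the 9 genes (red) and 8 of the other lists (blue; the list of other Sproutys and SPREDs, with 1 measured gene, is not drawn), with each list's median as a black bar and 2-fold dashed. Beyond 2-fold lie SPRY1 (-1.15), LRIG1 (-1.42) and PPP2R1A (1.05), and the RAS-ERK core clusters around its median of -0.02.

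The processing choices mattered for SPRY1 and DUSP4 more than for the rest. SPRY1 lay between -1.18 and -1.15 in all settings but the raised floor (-0.37, a bound) and the mean over its probe sets (-0.61). DUSP4 read 0.30 as reported and -0.04 when probe sets that can share probes were left out. SPRY2 stayed between 0.17 and 0.22, DUSP5 between 0.15 and 0.20 and DUSP1 between 0.22 and 0.26, while DUSP6 lay between -0.32 and -0.17, SPRY4 between -0.35 and -0.31 and SPRED2 between -0.11 and -0.07. SPRED1 lay between -0.12 and 0.01.

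**Figure D5:**
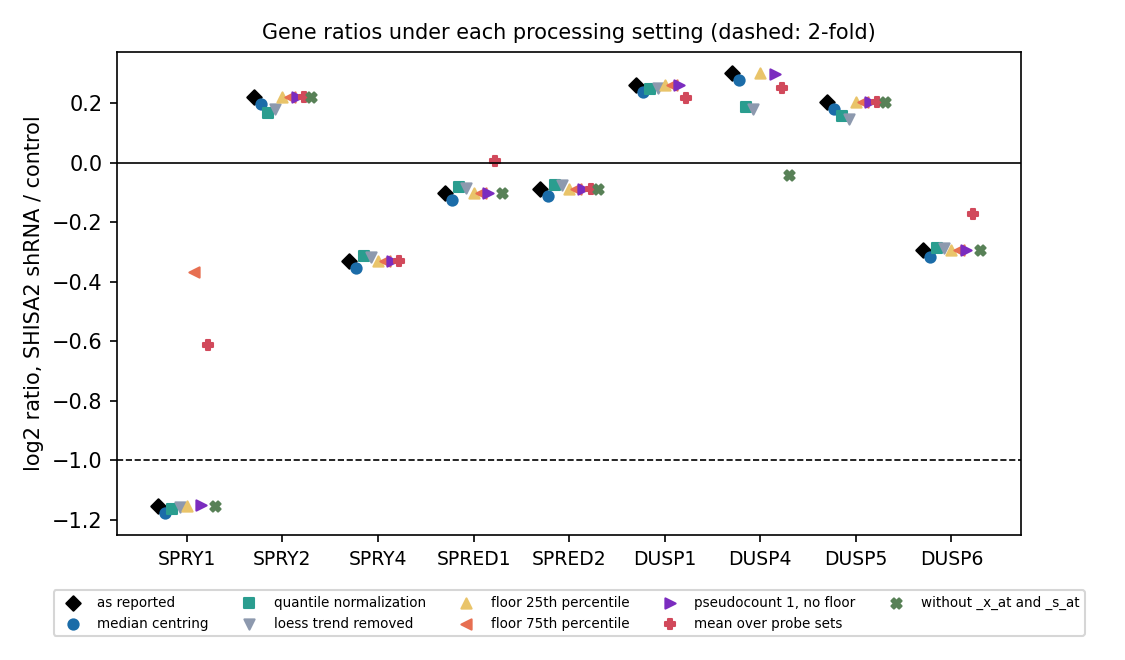
Log2 ratio, knockdown over control, of each gene under the reported setting and 8 alternatives, with 2-fold lower dashed. Only SPRY1 and DUSP4 have a setting that lies farther than 0.286 from the reported value, and SPRY1 is above the 2-fold line with the floor at the 75th percentile (-0.37) and with the mean over its probe sets (-0.61).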

How the data were processed

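Data from 2 arrays were used, 1 for PC-3 cells with a control shRNA vector and 1 for cells with a vector against SHISA2, grouped by the sample titles. The deposited intensities are probe-set signals on a linear scale that the authors computed with MAS5 (version unstated), per the submitters' processing notes. This algorithm subtracts mismatch-probe signal, which makes dim values noisy. The mean without the top and bottom 2% of values was 500.1 in both arrays, and no further scaling was applied. Of 54675 probe sets 62 controls were left out. The annotation names 1 gene for 41097 probe sets and several for 1801, and 41043 matched RefSeq gene identifiers.

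Floor, measured probe sets, brightest probe set per gene and yardstick are as the report defines them. Probe sets ending in _x_at or _s_at may hold probes that match several transcripts. Alternatives were median centring, quantile normalization, a loess trend (span 0.3), floors at the 25th (11.3) and 75th percentile, a pseudocount of 1 without a floor, the mean over a gene's measured ones, omission of those ending in _x_at or _s_at, and thresholds of 1.5-fold and 3-fold. The procedure was tested on simulated data with shifts larger than 2-fold, planted only in bright probe sets. That test does not cover dim probe sets or smaller ratios. Named are all members and, of each list, genes at least 2-fold apart and up to 4 with the largest ratios in size; others are marked, apart from cell type markers. Members and lists were chosen with earlier results of these data known. Python 3.11.15, pandas 2.3.3 and statsmodels 0.14.6 were used.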

Additional observations from a re-analysis of the deposited data

How the results depend on the processing

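Of 69 gene ratios of members under the alternatives, 66 lay within 0.286 of the reported value, 3 did not (SPRY1 with the floor at the 75th percentile and with averaged probe sets, DUSP4 without _x_at and _s_at probe sets) and SPRY1, the 1 gene at least 2-fold apart, kept its sign. DUSP4 was below 0 (-0.04) without _x_at and _s_at probe sets, and SPRED1 above 0 (0.01) with averaged ones. The count of member probe sets at least 2-fold apart was 1 as reported and under the 3 other scalings. It was 3 with the floor at the 25th percentile and 3 with a pseudocount and no floor, where dim DUSP1 probe sets with control signals of 9 and 16 joined SPRY1, and 0 with the floor at the 75th percentile or with a 3-fold threshold. The median over the member genes ran from -0.11 to 0.01. The list of other Sproutys and SPREDs read 0.66 with the lower floor and 0.63 with the pseudocount, because SPRY3 (16.8 against 38.9) then counted as measured, and the FGF receptor list read 0.22 with averaged probe sets. With the floor at the 75th percentile DUSP4 has no value, and without _x_at and _s_at probe sets SPRY4 and DUSP1 have none that was measured. Signals near the floor limit what can be said of DUSP4 and of the dim SPRY1, SPRED1, SPRED2 and DUSP1 probe sets. No paired analysis was possible because each group has 1 array.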

Other observations

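Transcripts named after members of the family were also on the array and were looked at after the other values had been seen. SPRY4-IT1, a long noncoding RNA from an intron of SPRY4, read 333.8 in control cells and 218.4 after knockdown on probe set 1566968_at, a log2 ratio of -0.61, beside -0.33 for SPRY4 itself. Its other probe set was under the floor in both arrays (8.4 and 45.5). DUSP5P1, a pseudogene of DUSP5, read 484 and 523.5 (0.11), beside 0.20 for DUSP5. Each of these values rests on 1 probe set and 1 array per group, and whether the probe sets also read the parent genes was not tested.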
